A study of Mus musculus with 16 samples.

Results

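The genes described here are the interleukin 20 (IL-20) family cytokines IL-19, IL-20 and IL-24 and the receptor chains through which they act, in mouse dorsal skin. The members were the rows with the symbols Il24, Il19, Il20, Il20ra, Il20rb, Il22ra1 and Il10rb, which are 7 of the 23282 rows of each count table. They were chosen from an earlier view of these data, in which Il24 showed one of the largest rises in the LowAhR+AD group compared to the LowAhR group. The values of the LowAhR+AD group against the groups without dermatitis are therefore given as a description, with no test. Of the 7 members, 6 passed the filter on low counts and Il20 did not.

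Male C57BL/6N mice, wild type by label, were 3 weeks old at purchase and acclimatized for 1 week. The Cont group received normal chow. The other 3 groups received a diet low in ligands of the aryl hydrocarbon receptor (AhR), a ligand-activated transcription factor, with AhR-ligand-free paper bedding for 12 weeks. The LowAhR group received no other treatment. In the LowAhR+AD group, atopic dermatitis (AD) was induced after 2 weeks of the diet by applying 1% 2,4-dinitrochlorobenzene (DNCB), a hapten, in acetone and olive oil to the back 2 times a week. The LowAhR+AD+BJ group received the same diet and DNCB together with 1 g/kg per day of Bojungikgi-tang (BJIKT), a herbal water extract, by gavage. Each group had 4 libraries. None of the 4 groups received DNCB on normal chow, the DNCB vehicle alone or BJIKT alone, so the effects of DNCB, its vehicle and handling cannot be told apart. No source used here ties each library to one mouse, and p-values measure the spread between these libraries.

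IL-19, IL-20 and IL-24 belong to the IL-10 cytokine family and are made by keratinocytes and by myeloid cells in inflamed skin. They bind the type I receptor, which pairs IL-20RA with IL-20RB. IL-20 and IL-24 also bind the type II receptor, which pairs IL-22RA1 with IL-20RB. IL-22RA1 pairs with IL-10RB to form the receptor of IL-22. The receptors signal through JAK kinases and mainly STAT3, and in keratinocytes this signal is known to raise antimicrobial proteins and the keratins of a thickened epidermis.

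Libraries held 7080508 to 13467477 counts, and all 8 libraries of the DNCB groups had more counts than any library without DNCB. A count of 3, the limit that a count of 0 allows, equalled 0.229 to 0.406 CPM, the count scaled to a common library size (counts per 1e6). These limits cover counting error only. Replicate 1 of the LowAhR+AD group lacked any count for 38.2% of the genes whose level in the rest of its group predicted 20 to 40 counts there, against at most 13.6% in any other library. Epidermal keratins were high in every library, with Krt14 at 595 to 4860 CPM. Markers of several cell types differed between the groups. The sum of 6 basal keratinocyte markers was 2000 to 2880 CPM in Cont and 4130 to 7140 CPM in LowAhR+AD+BJ, although of its 6 genes Krt14 was called higher and Col17a1 lower there. The sum of 5 activated keratinocyte markers was 891 to 1390 CPM in Cont and 12800 to 32700 CPM in LowAhR+AD+BJ, and the sum of the 6 neutrophil markers in the tables, of a list of 7, was 28.5 to 47.7 CPM and 941 to 2880 CPM in the same groups. The sum of 6 fibroblast markers was 27700 to 69500 CPM in Cont and 11000 to 20000 CPM in LowAhR+AD+BJ. The sum of 9 hair follicle markers was 17.3 to 468 CPM in Cont and 3080 to 8490 CPM in LowAhR+AD+BJ, with 9 of 9 called higher, where 11.2% of all genes were. In LowAhR, without DNCB, that sum was 46.6 to 5330 CPM and overlapped the DNCB groups. Compared to LowAhR, 0 of the 9 were called in LowAhR+AD+BJ. The sum of the 5 T cell markers in the tables, of a list of 7, was 18.1 to 37.3 CPM in Cont and 3.66 to 17.4 CPM in LowAhR+AD+BJ. Those of 6 sebaceous gland markers were 3440 to 4750 CPM and 1490 to 2540 CPM, and those of 6 adipocyte markers 1630 to 2890 CPM and 867 to 1320 CPM, with 3920 to 4630 CPM in LowAhR. The 6 sebaceous genes did not move together. In LowAhR+AD+BJ compared to Cont, 1 was called higher and 2 lower, with a median log2 fold change of -0.102. Over all genes, 11.2% were called higher and 8.62% lower there. The sums of the other 4 lists overlapped between Cont and LowAhR+AD+BJ. No marker of the 8 lists given in the tables was at 0 in every library of a group. The part of these shifts in the results was not tested, and in bulk skin fewer cells of a type and less RNA per cell cannot be told apart.

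The 3 ligand genes lie side by side on mouse chromosome 1, all on the minus strand. In GRCm38 (mm10), with RefSeq gene bounds, Il24 is at chr1:130882074-130887411, Il20 at chr1:130906985-130911296 and Il19 at chr1:130932656-130945457, so that the 3 genes span 63.4 kb. The receptor genes are on other chromosomes. Il20ra is at chr10:19711673-19760053 on the plus strand, 76991 bases from Il22ra2, the gene of the secreted IL-22 binding protein, and Il20rb is at chr9:100457719-100486473 on the minus strand. Il22ra1 is at chr4:135728159-135755383 and Il10rb at chr16:91406157-91425834, both on the plus strand. All 7 are annotated as protein coding. In GENCODE M21, Il20ra overlaps the antisense gene Gm33332 and Il10rb overlaps the protein-coding gene Gm21970 on its own strand, so reads of these pairs may not be separated by the counting.

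Promoter windows (250 bases before to 50 after the start, RefSeq, GRCm38.p6) were found for 5 of the 7 members, each around 1 annotated transcript start. For Il20, Il20rb and Il22ra1 this start is the end of the gene bounds given above, while it lies 914 bases inside those of Il20ra and 5342 bases inside those of Il19. The windows of Il20ra, Il20rb and Il22ra1 are shown, the 3 receptor chains for which a window was found. Capitals mark matches, on either strand, to 3 motifs: the STAT motif TTCNNNGAA, the AP-1 motif TGANTCA and the AhR core motif GCGTG. The motifs do not overlap each other in these windows.
Il20ra (chr10:19712337-19712636, plus strand): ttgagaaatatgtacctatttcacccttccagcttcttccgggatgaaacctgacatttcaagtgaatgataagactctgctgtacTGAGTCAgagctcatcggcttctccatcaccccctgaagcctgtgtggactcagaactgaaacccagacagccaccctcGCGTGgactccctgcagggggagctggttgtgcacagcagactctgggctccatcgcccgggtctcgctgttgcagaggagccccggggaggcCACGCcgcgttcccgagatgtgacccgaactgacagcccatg
Il20rb (chr9:100486424-100486723, minus strand): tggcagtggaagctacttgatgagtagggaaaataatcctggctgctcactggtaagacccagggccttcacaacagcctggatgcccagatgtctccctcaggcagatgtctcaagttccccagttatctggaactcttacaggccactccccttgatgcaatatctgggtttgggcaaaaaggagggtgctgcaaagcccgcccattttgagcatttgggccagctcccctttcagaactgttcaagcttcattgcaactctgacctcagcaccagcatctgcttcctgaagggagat
Il22ra1 (chr4:135727909-135728208, plus strand): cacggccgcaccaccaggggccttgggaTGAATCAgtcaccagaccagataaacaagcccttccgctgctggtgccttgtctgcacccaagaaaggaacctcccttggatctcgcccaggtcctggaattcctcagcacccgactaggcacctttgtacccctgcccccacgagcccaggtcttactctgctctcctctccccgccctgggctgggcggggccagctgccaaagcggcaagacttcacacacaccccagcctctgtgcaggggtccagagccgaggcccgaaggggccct

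The Il20ra window held 1 AP-1 match (TGAGTCA, first base at -164 from the start of its window's transcript) and 2 AhR core matches, at -85 on the strand of the gene and at 9 on the other strand. The Il22ra1 window held 1 AP-1 match (TGAATCA at -222), and the Il20rb window held none of the 3 motifs. Of the ligand windows, that of Il19 held 1 STAT match (TTCCCAGAA at -225) and that of Il20 held none of the motifs. Among all 32851 windows of the same length in the table, 8.3% held the STAT motif, 7.81% the AP-1 motif and 32.4% the AhR core motif. These matches describe letters in a window and not bound sites.

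Il24, a ligand of both receptor types, was not detected without DNCB and was detected in every library with it. All 8 libraries of the Cont and LowAhR groups had 0 counts. The LowAhR+AD libraries had 40.7, 17.6, 1.32 and 11.1 CPM for replicates 1 to 4, from 534, 215, 17 and 138 counts. The LowAhR+AD+BJ libraries had 25.1, 21, 1.63 and 3.23 CPM, from 275, 206, 21 and 32 counts. The libraries with and without DNCB did not overlap, but within each DNCB group the highest library exceeded the lowest by more than an order of magnitude. Compared to Cont, the mean of the LowAhR+AD+BJ group (12.7 ± 12 CPM, SD, n = 4) was at least 33.9-fold higher, taking 3 counts per library as the limit (edgeR adjusted p = 0.00299, exact permutation p = 0.0286, the smallest that 4 against 4 libraries can give). Diet, DNCB and BJIKT all differ in this comparison. The call was lost with limma voom (adjusted p = 0.0958). Il24 passed the filter on low counts through the DNCB libraries alone. With at least 10 counts required in every library it was not tested, and the members called against Cont were Il20rb and Il22ra1. Against LowAhR, whose libraries entered the choice of the members, the bound was 33.1-fold, given as a description with no test.

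Il19, a ligand of the type I receptor, was near or under the limit of detection without DNCB and at a few CPM in most libraries with it. The Cont libraries had 0, 1.29, 0.123 and 0.718 CPM, and of the LowAhR libraries only replicate 1 had any, with 1.35 CPM. The LowAhR+AD libraries had 3.89, 6.07, 0 and 5.54 CPM and the LowAhR+AD+BJ libraries 11.9, 9.67, 3.5 and 0 CPM. One library of each DNCB group was thus at 0, and the groups overlapped. The fitted log2 fold change of LowAhR+AD+BJ was 3.53 (SE 1.67) against Cont and 4.19 (SE 1.74) against LowAhR, and neither passed the test (edgeR adjusted p = 0.152 and 0.161; exact permutation p = 0.171 and 0.143). The value against LowAhR was 8.98 without LowAhR replicate 1 (edgeR adjusted p = 0.0719), which leaves LowAhR at 0 and the fitted value without a base.

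Il20, which signals through both receptor types, had the lowest mean CPM of the 3 ligands in each DNCB group. No count was found in the 8 libraries without DNCB. The LowAhR+AD libraries had 0, 7, 4 and 0 counts (0, 0.574, 0.311 and 0 CPM), and the LowAhR+AD+BJ libraries had 38, 19, 0 and 26 counts (3.47, 1.93, 0 and 2.62 CPM). The mean of LowAhR+AD+BJ (2 ± 1.48 CPM, SD, n = 4) was at least 5.34-fold above the limit in Cont and 5.22-fold above that in LowAhR, with replicate 3 at 0. None of its comparisons passed an exact permutation test (p = 0.143 against each of Cont, LowAhR and LowAhR+AD). Without the filter on low counts, the edgeR adjusted p was 0.0599 against Cont, 0.111 against LowAhR and 0.612 against LowAhR+AD. Against Cont it was called with DESeq2 (adjusted p = 0.0433). With edgeR it passed the filter whenever a Cont library was left out, and was not called (adjusted p = 0.0943 to 0.0995). It also passed the filter without LowAhR+AD+BJ replicate 3, the library of that group at 0, and was called there (edgeR adjusted p = 0.0337). With no count in the libraries without DNCB, Il20 can pass the filter through the DNCB libraries alone.

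Il24 made up most of the ligand counts in 7 of the 8 DNCB libraries. It gave 91.3, 72.6, 81 and 66.7% of the summed Il19, Il20 and Il24 counts in LowAhR+AD replicates 1 to 4, and 61.9, 64.4, 31.8 and 55.2% in LowAhR+AD+BJ. The shares of the latter group all lay below those of the former, from 21 to 585 ligand counts per library. The kit primes at the 3′ end of transcripts, and the counts were not divided by length. This difference was seen in the values, uses the LowAhR+AD libraries in which Il24 drew attention, and was not tested.

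**Figure D1:**
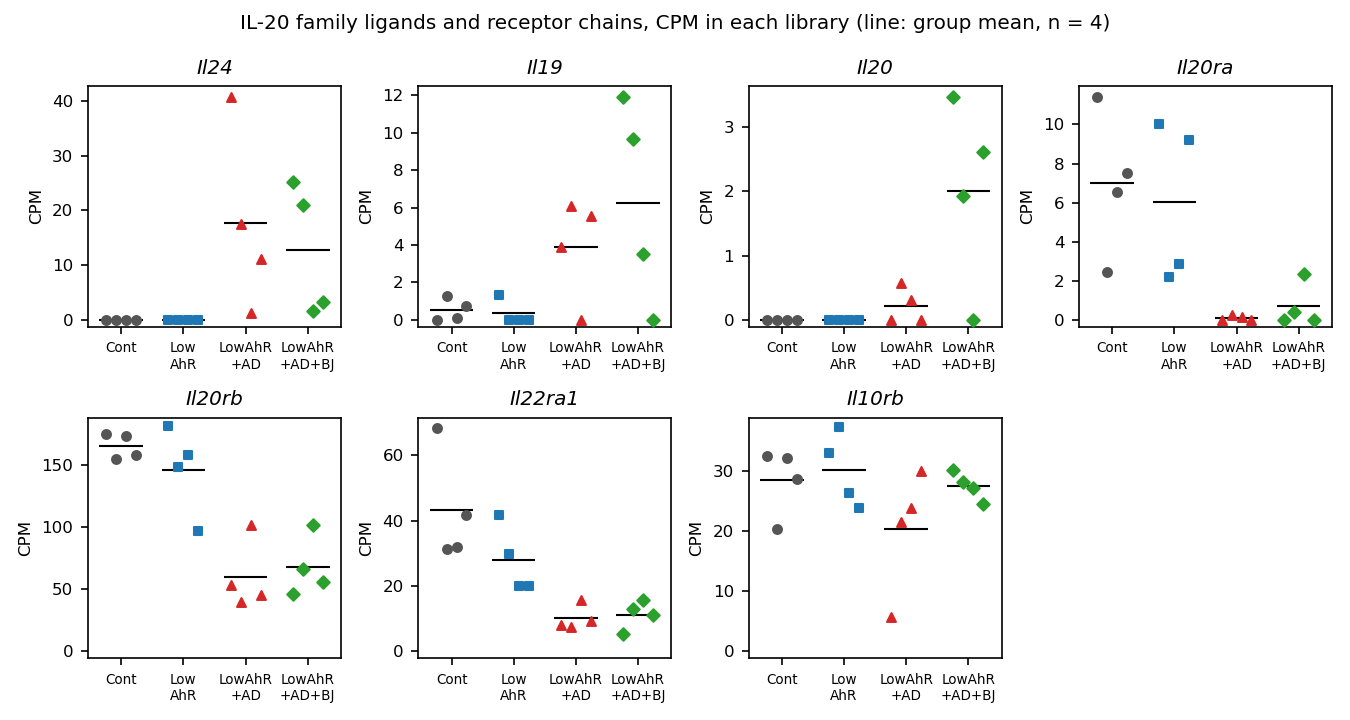
CPM of the 7 genes (y axis, one panel per gene with its own scale) in each library of the 4 groups (x axis), with points for libraries in the order of replicates 1 to 4 and a line for the group mean. Il24 was at 0 in all Cont and LowAhR libraries and at 1.32 to 40.7 CPM in the DNCB groups, while Il20rb was at 96.8 to 181 CPM without DNCB and 39.4 to 102 CPM with it.

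Of the 4 receptor chains, Il20rb and Il22ra1 were called lower in LowAhR+AD+BJ compared to Cont, where diet differs too, and compared to LowAhR. Il20ra also had a lower mean and did not pass the edgeR test. Il20rb, the chain shared by both receptor types, was the most abundant of the 4 chains by CPM in every library. Its levels were 175, 155, 173 and 158 CPM in Cont and 181, 148, 158 and 96.8 CPM in LowAhR. They were 53.2, 39.4, 102 and 44.9 CPM in LowAhR+AD and 46.2, 65.9, 102 and 55.9 CPM in LowAhR+AD+BJ. All DNCB libraries were below every Cont library, and replicate 3 of each DNCB group lay just above the lowest LowAhR library. Il20rb fell in LowAhR+AD+BJ by 1.29 on the log2 scale compared to Cont (SE 0.297, edgeR adjusted p = 0.00539, exact permutation p = 0.0286). It fell by 1.12 compared to LowAhR (edgeR adjusted p = 0.0308, exact permutation p = 0.0571).

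Il22ra1, the chain that pairs with IL-20RB for IL-20 and IL-24 and with IL-10RB for IL-22, showed a larger fitted fall than Il20rb, a difference tested below as their ratio. Its levels were 68.4, 31.4, 31.9 and 41.8 CPM in Cont and 41.8, 29.8, 20 and 20 CPM in LowAhR. They were 8.08, 7.46, 15.7 and 9.39 CPM in LowAhR+AD and 5.29, 12.9, 15.6 and 11 CPM in LowAhR+AD+BJ. No DNCB library reached the lowest library without DNCB. In LowAhR+AD+BJ it fell by 1.95 on the log2 scale compared to Cont (SE 0.382, edgeR adjusted p = 0.0019, exact permutation p = 0.0286) and by 1.31 compared to LowAhR (edgeR adjusted p = 0.0429, exact permutation p = 0.0286). The calls of both Il20rb and Il22ra1 against LowAhR were not stable, and each was lost when replicate 1, 2 or 3 of LowAhR or replicate 1, 2 or 4 of LowAhR+AD+BJ was left out (adjusted p up to 0.1 for Il20rb and up to 0.141 for Il22ra1). The log2 fold changes when any of the 8 libraries was left out stayed at -1.38 to -0.97 for Il20rb and -1.52 to -1.05 for Il22ra1. That of Il22ra1 was also lost with limma voom (adjusted p = 0.0567). Against Cont, both calls were kept whichever library was left out.

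Il20ra, the chain particular to the type I receptor, was low in skin without DNCB and close to the limit of detection with it. It was at 11.4, 2.45, 6.54 and 7.54 CPM in Cont and at 10, 2.17, 2.86 and 9.18 CPM in LowAhR. The LowAhR+AD libraries had 0, 0.246, 0.155 and 0 CPM, 5 counts in all, and the LowAhR+AD+BJ libraries 0, 0.407, 2.33 and 0 CPM, 34 counts in all. Every library of LowAhR+AD+BJ was below every Cont library, by a narrow margin for replicate 3. The fitted log2 fold change against Cont was -3.30 (SE 1.20), with an edgeR adjusted p of 0.0607 and an exact permutation p of 0.0286. Against LowAhR it was -3.09 (edgeR adjusted p = 0.129, exact permutation p = 0.0571). In other fits the log2 difference from Cont was -3.37 with DESeq2 (adjusted p = 0.00945), -4.73 with limma voom (adjusted p = 0.0137) and -5.57 with edgeR without LowAhR+AD+BJ replicate 3 (adjusted p = 0.00893). Against LowAhR it was -3.16, -4.42 and -5.37 under the same changes (adjusted p = 0.03, 0.0439 and 0.0201). Most other fits left it uncalled. Of the 8 edgeR fits with a library left out, 1 called it in each comparison (adjusted p up to 0.142 against Cont and 0.281 against LowAhR). Of 9 other settings, 6 left it uncalled against Cont (adjusted p up to 0.0771) and 7 against LowAhR (up to 0.149).

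Il10rb, the chain shared by the receptors of IL-10, IL-22 and the type III interferons, was at 20.4 to 32.5 CPM in Cont, 23.9 to 37.3 CPM in LowAhR and 24.5 to 30.1 CPM in LowAhR+AD+BJ. The groups overlapped throughout. The LowAhR+AD libraries had 5.72, 21.5, 23.9 and 29.9 CPM, the lowest being replicate 1, the library with the most unexpected zeros. The log2 fold change of LowAhR+AD+BJ was -0.048 against Cont and -0.13 against LowAhR, and neither passed the edgeR test (adjusted p = 0.948 and 0.872).

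In total, 3 of the 6 members tested were called in LowAhR+AD+BJ compared to Cont, with Il24 higher and Il20rb and Il22ra1 lower. Il24, at 0 without DNCB, entered the tested genes only through the libraries where it was high, so its call adds no independent weight to this count. Over all 14854 genes tested, 11.2% were called higher and 8.62% lower. Compared to LowAhR, Il20rb and Il22ra1 were called lower, where 3.64% of all genes were called higher and 3.12% lower, and Il24 is not counted there. The median log2 fold change of all genes was 0.0268 and 0.00776 in these comparisons. In a check added after the data were seen, LowAhR+AD replicate 1 was left out of the shared model. Compared to Cont, 5 members were then called, with Il20 (edgeR adjusted p = 0.0379) and Il20ra (adjusted p = 0.0359) beside the 3. Genes called over all rose from 2949 to 3817. Il20, also at 0 without DNCB, entered only through the DNCB libraries, so its call adds no independent weight either. Il20rb and Il22ra1 were again called compared to LowAhR.

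**Figure D2:**
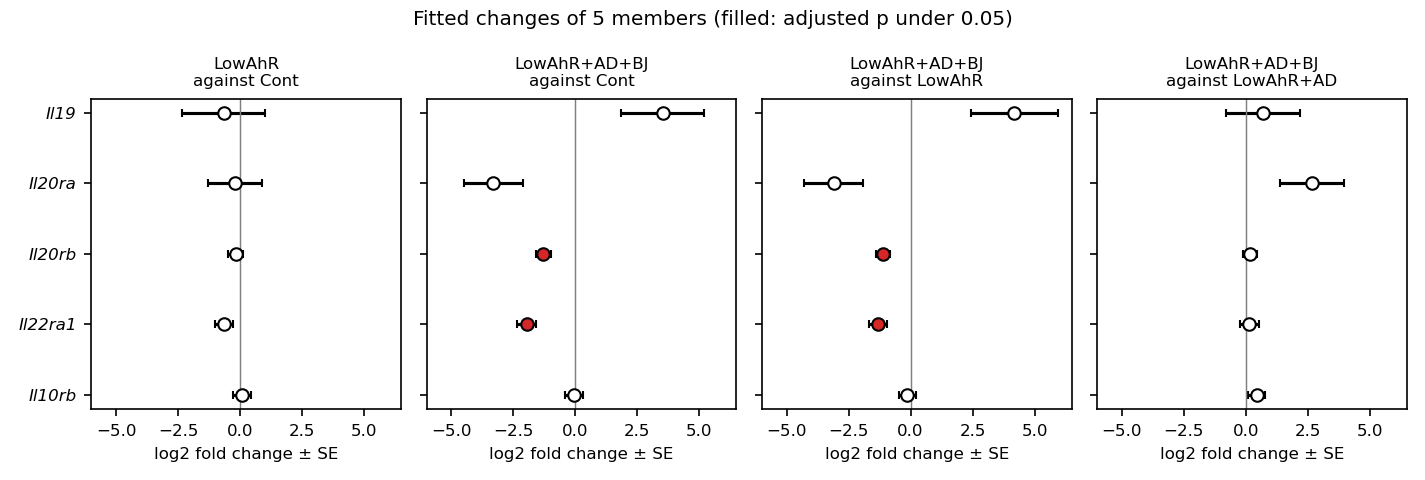
Fitted log2 fold changes (x axis, point, with a bar of 1 SE to each side) of the 5 members detected in all 4 groups (y axis) in the 4 comparisons tested, from edgeR. Red points passed an adjusted p of 0.05: Il20rb and Il22ra1 compared to Cont (-1.29 and -1.95) and to LowAhR, and none in the other 2 comparisons.

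The LowAhR+AD group, whose contrast entered the choice of the members, had the following values. Its mean Il24 was 17.7 ± 16.8 CPM (SD, n = 4), at least 46-fold above the limit in LowAhR. Without replicate 1, the library with the most unexpected zeros, the mean was 10 CPM and the bound 26.0-fold. Il20ra was 0.1 ± 0.122 CPM against 6.05 ± 4.11 CPM in LowAhR (log2 fold change -5.76, SE 1.40). The log2 fold change compared to LowAhR was -1.29 for Il20rb, -1.46 for Il22ra1, -0.57 for Il10rb and 3.49 for Il19. The comparisons of both DNCB groups share the LowAhR and Cont libraries.

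The low AhR ligand diet without DNCB gave no call among the members. In LowAhR compared to Cont, 0 of 14854 genes were called (0%) with edgeR, with 2031 at an unadjusted p under 0.05, while 509 were called with DESeq2 and 475 with edgeR when LowAhR+AD replicate 1 was left out of the shared model. Il22ra1 had a log2 fold change of -0.64 (SE 0.37, edgeR adjusted p = 0.479), with overlapping groups. Il20rb averaged 146 ± 35.6 CPM in LowAhR and 165 ± 10.4 CPM in Cont, and Il20ra 6.05 ± 4.11 and 6.99 ± 3.68 CPM (SD, n = 4 each). Il24 and Il20 were at 0 in both groups.

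BJIKT gave no call among the members either. In LowAhR+AD+BJ compared to LowAhR+AD, 0 of 14854 genes were called (0%) with edgeR, with 1405 at an unadjusted p under 0.05 and 23 called with DESeq2, none of them a member. Il24 had a log2 fold change of -0.48 (SE 0.96, edgeR adjusted p = 0.899), and its direction rested on LowAhR+AD replicate 1, without which it was 0.34. The LowAhR+AD values of Il24 entered the choice of the members, so a lower value in LowAhR+AD+BJ can follow from that choice alone. Il20ra differed by 2.66 on the log2 scale, 34 against 5 counts (adjusted p = 0.528), and by 0.37 without LowAhR+AD+BJ replicate 3. The log2 fold change of Il10rb was 0.44 (adjusted p = 0.713). Il20 had 83 against 11 counts (exact permutation p = 0.143). At this spread between libraries these values do not show that the 2 groups are alike.

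The replicates numbered 3 stood apart from the other libraries of both DNCB groups, a pattern noted after the values were seen. They had the lowest Il24 of their groups (1.32 and 1.63 CPM) and the highest Il20rb (102 CPM in each) and Il22ra1 (15.7 and 15.6 CPM). They also had the lowest Krt6a, a keratin of activated epidermis, with 4080 and 5870 CPM against 13300 to 19700 CPM in the other 6. Krt17 was lowest in them as well. Krt6b and Krt16 were lowest in replicate 3 of LowAhR+AD+BJ only. In LowAhR+AD these genes were lowest in replicate 1, with 143 and 322 CPM against 4620 and 1000 CPM in replicate 3. The labels do not say whether a number marks a shared animal or batch, and the cause was not tested.

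**Figure D3:**
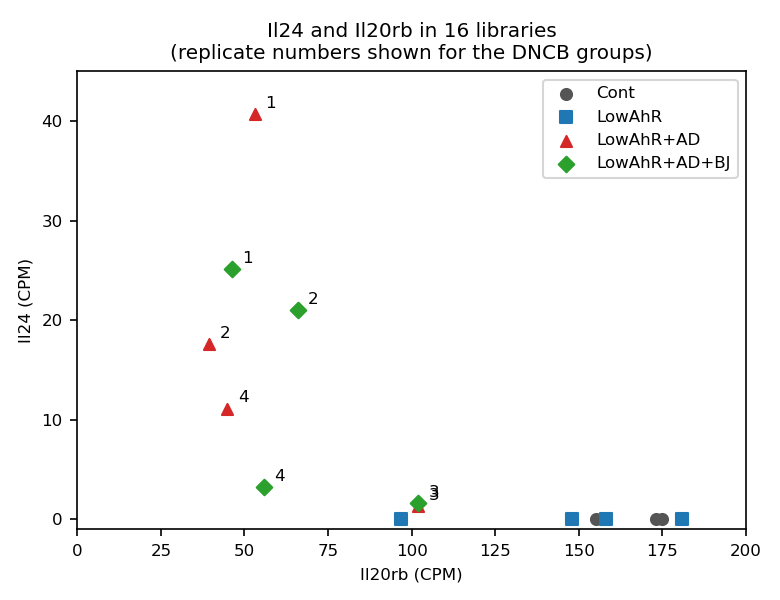
Il24 (y axis, CPM) against Il20rb (x axis, CPM) in 16 libraries, with a symbol for each group and the replicate number beside the DNCB libraries. The libraries without DNCB lie at 0 on the y axis, and both replicates numbered 3 lie near 102 CPM of Il20rb with 1.32 and 1.63 CPM of Il24, with their 2 symbols on top of each other.

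The log2 ratio of Il10rb to Il22ra1 counts, the 2 chains of the IL-22 receptor, was -0.557 ± 0.445 in Cont, 0.158 ± 0.338 in LowAhR and 1.39 ± 0.755 in LowAhR+AD+BJ (SD, n = 4 each). The LowAhR+AD+BJ ratios lay above all those of the other 2 groups (exact permutation p = 0.0286 for each, 0.183 after adjustment over 16 tests of ratios). The log2 ratio of Il20rb to Il22ra1, the chains of the type II receptor, was 2.00 ± 0.486 in Cont and 2.63 ± 0.367 in LowAhR+AD+BJ, and the difference did not pass the test (exact permutation p = 0.114). That of Il20rb to Il20ra, the chains of the type I receptor, was 4.74 ± 0.863 in Cont and 8.17 ± 2.28 in LowAhR+AD+BJ (exact permutation p = 0.0571). This last difference, 3.43 on the log2 scale, varied with the 0.5 counts added to each chain, since Il20ra had 0 counts in 2 of the 4 LowAhR+AD+BJ libraries. It was 2.36 with 2 counts added and 4.62 with 0.1, and 2.78 to 4.35 when a library was left out. No ratio passed after adjustment.

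Among 8 other ligands and receptor chains of the IL-10 family, 3 passed the filter and 1 was called, lower, against Cont, where 8.62% of all genes were. Il22ra2, whose secreted product binds IL-22 and keeps it from its receptor, had 21.8, 17, 20 and 24.2 CPM in Cont and 17.4, 13.3, 11.1 and 10.1 CPM in LowAhR. In each DNCB group 3 of 4 libraries were at 0, and only replicate 3 had counts, with 1.55 CPM in LowAhR+AD and 4.35 CPM in LowAhR+AD+BJ. It fell by 4.19 on the log2 scale in LowAhR+AD+BJ compared to Cont (SE 1.28, edgeR adjusted p = 0.0281). Compared to LowAhR the log2 fold change was -3.51 (adjusted p = 0.101). Il22, Iltifb, Ifnl2 and Ifnl3 had 0 counts in all libraries. Il10 had 3 to 30 counts per group. Il10ra, the ligand-binding chain of the IL-10 receptor, and Ifnlr1, that of the type III interferons, passed the filter and were not called.

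**Figure D4:**
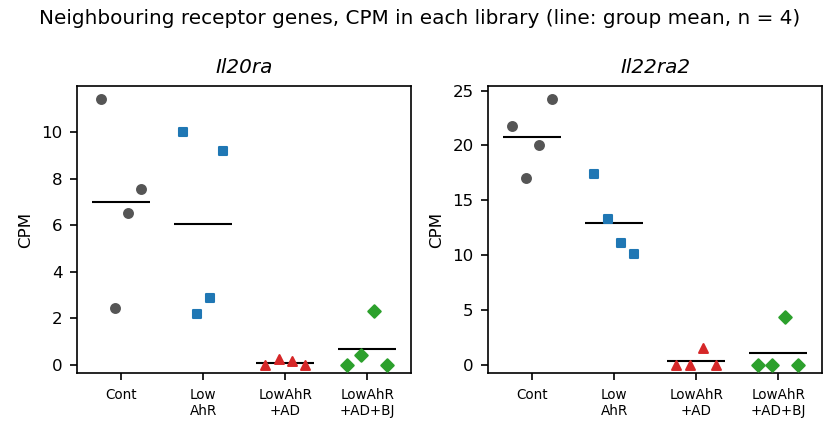
CPM (y axis) of Il20ra and its neighbour Il22ra2 in each library of the 4 groups (x axis), with a line for the group mean. Both had counts in every library without DNCB, and in the LowAhR+AD+BJ group both were highest in replicate 3 (2.33 and 4.35 CPM).

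Of 12 genes that carry or restrain the receptor signal, 0 were called higher and 2 lower in LowAhR+AD+BJ compared to Cont, and none in the other comparisons. Over all genes 11.2% were called higher and 8.62% lower against Cont. Pim1, a kinase gene induced by STAT factors, was 247 ± 88.2 CPM in Cont, 104 ± 11.7 in LowAhR, 96.7 ± 15.7 in LowAhR+AD and 69.5 ± 19.6 in LowAhR+AD+BJ (SD, n = 4 each). It fell by 1.83 on the log2 scale compared to Cont (edgeR adjusted p = 0.000225). Stat5b fell by 0.90 (adjusted p = 0.0235). Stat3 averaged 111 ± 19.8 CPM in Cont, 103 ± 42 in LowAhR, 154 ± 21.1 in LowAhR+AD and 110 ± 27.8 in LowAhR+AD+BJ, and was not called in any comparison tested. Socs3, a feedback inhibitor induced by STAT3, was 22.5 ± 5.73 CPM in Cont and 43.9 ± 9.44 CPM in LowAhR+AD+BJ without overlap, and did not pass the edgeR test (adjusted p = 0.0945, and 0.054 against LowAhR). The median log2 fold change of the 12 genes against Cont was -0.204.

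Of 15 keratinocyte genes known to respond to IL-20 family cytokines or IL-22, 14 were called higher in LowAhR+AD+BJ compared to Cont and none lower, where 11.2% and 8.62% of all genes were, with a median log2 fold change of 5.67 against 0.0268 over all genes. Compared to LowAhR, 11 were called higher, where 3.64% of all genes were, with a median of 4.73 against 0.00776 over all genes. The list was chosen with earlier results of these data known. The medians did not change with Cxcl5, which was at 0 in both groups without DNCB, set at its bound. Cxcl5 passed the filter through the DNCB libraries alone. The hyperproliferation keratin gene Krt6a rose from 182 ± 76.6 CPM in Cont to 13600 ± 5810 CPM (log2 fold change 6.23, edgeR adjusted p = 5.6e-05), and Krt16 from 20.7 ± 9.83 to 1190 ± 424 CPM. The acute-phase gene Saa3 rose from 2.93 ± 1.75 to 2670 ± 3140 CPM, and S100a8, which encodes a calcium-binding antimicrobial protein, from 6.94 ± 4.46 to 927 ± 381 CPM (SD, n = 4). The Saa3 mean in LowAhR+AD+BJ was 1120 CPM without replicate 1, which had 7320 CPM. Cxcl5, a neutrophil chemokine, was at least 132-fold above the limit in Cont. Defb14, a beta-defensin gene, was the one not called, with 145 CPM in 1 library and 6.14 to 20.7 CPM in the other 3. These genes also respond to other cytokines. S100a8 and S100a9 are abundant in neutrophils and stand in both lists: of the 5 neutrophil markers tested, 4 were called higher compared to Cont, S100a8 and S100a9 among them. Krt6a, Krt6b, Krt16 and Krt17 stand in the activated keratinocyte list as well. None of the 15 was called in LowAhR compared to Cont or in LowAhR+AD+BJ compared to LowAhR+AD.

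**Figure D5:**
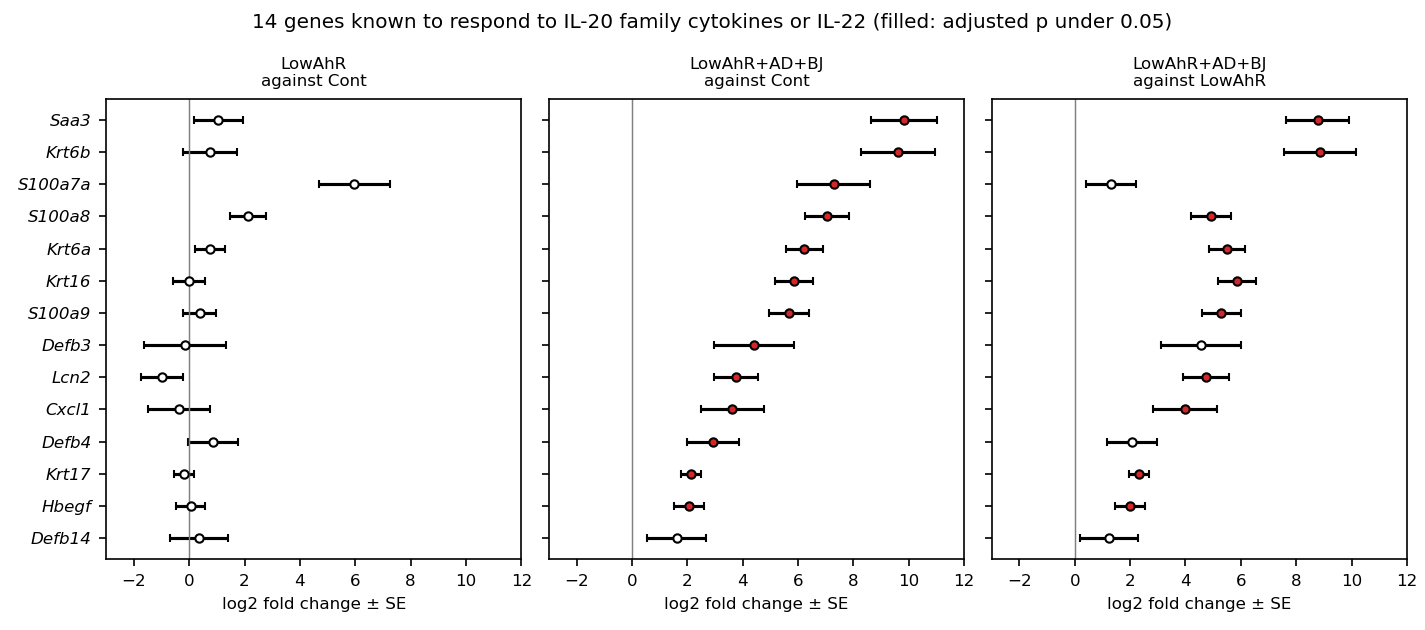
Fitted log2 fold changes (x axis, with a bar of 1 SE to each side) of 14 of the 15 response genes (y axis; Cxcl5, at 0 without DNCB, is left out) in 3 comparisons, from edgeR. Red points passed an adjusted p of 0.05, and all but Defb14 did so in LowAhR+AD+BJ compared to Cont.

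Of 11 cytokines known to induce the 3 ligands in skin cells, 6 passed the filter and 1 was called, higher, against Cont, where 11.2% of all genes were. Il1b, which encodes a cytokine of myeloid cells and keratinocytes, had 7.57, 6.33, 11 and 11.6 CPM in Cont and 167, 124, 14.9 and 51.9 CPM in LowAhR+AD+BJ. It rose by a log2 fold change of 3.29 compared to Cont (SE 0.634, edgeR adjusted p = 0.00178) and of 3.22 compared to LowAhR (adjusted p = 0.00672). Its LowAhR+AD libraries had 27.2, 26.5, 40.4 and 82.7 CPM. Il17a and Il17f had 0 counts in all libraries, Il4 had 4 counts in 1 library and Il13 had 3 and 8 counts in 2. Tslp and Il33, alarmins of keratinocytes, were not called. Of the 7 genes of the ligand locus, from Mapkapk2 to Pigr and including the 3 ligands, 4 passed the filter and Il24 was the one called against Cont. Il24 passed the filter through the DNCB libraries alone and led to the choice of the members, so its call adds no independent weight here.

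The 5 genes whose log2 CPM was most like that of Il24 over the 16 libraries, among 10559 genes with a mean of at least 10 CPM in a group, were Cxcl5 (Pearson r = 0.966), Hsp90aa1 (0.962), Hspd1 (0.955), Actg1 (0.953) and Saa2 (0.951). Cxcl5 encodes a chemokine, Hsp90aa1 and Hspd1 encode chaperones, Actg1 a cytoplasmic actin and Saa2 an acute-phase protein. Within the 8 DNCB libraries r was 0.718 to 0.915 for these 5. The 5 most like Il20rb were Il22ra2 (0.96), Skint5 (0.958), Bbox1 (0.952), Paqr7 (0.948) and Crebrf (0.946), with r of 0.756 to 0.954 within the 8. Skint5 belongs to a family of immunoglobulin-like genes of skin and thymus, and its mean was 22.3 CPM in Cont and 3.03 CPM in LowAhR+AD+BJ. These correlations are descriptions. The libraries of a group share treatment, and the 8 libraries with DNCB differ from the 8 without it in depth and in cell type markers as well.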

How the data were processed

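RNA from dorsal skin was prepared with a Lexogen QuantSeq 3′ mRNA kit from 500 ng of total RNA and sequenced from a single end. The deposited files hold raw counts by gene symbol, 1 table per library. The submitters' processing notes name Bowtie2, bedtools and the build mm10, without versions. Annotation, strand and treatment of reads mapping to several genes are not given in the sources used here. Groups and replicates were taken from the sample labels. The tests used edgeR 4.0.16 in R 4.3.3 (filterByExpr, minimum count 10, minimum total 15, which kept 14854 rows, TMM, glmQLFit and glmQLFTest, 16 libraries in one model). P-values were adjusted by Benjamini-Hochberg over all tested genes, with 0.05 as threshold. Levels are CPM per effective library size, and log2 CPM used a prior count of 2. Single genes and ratios (0.5 counts added to each chain) were compared by two-sided exact permutation tests. Folds against a group at 0 were computed against 3 counts per library. Alternatives were DESeq2 1.42.0, limma voom 3.58.1, other filters, scalings and models, and leaving out each library. Scripts were tested on simulated data. Libraries of a group differed beyond sampling noise, so each counted as 1 replicate. The members, gene lists and tests were chosen with earlier results of these data known. The genes named were the 7 members, the genes of the lists and markers, and the 5 most like Il24 and the 5 most like Il20rb. Promoters and gene positions came from RefSeq, GRCm38.p6, and strands and overlaps from GENCODE M21. All 7 members matched by symbol.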

Additional observations from a re-analysis of the deposited data

Results flagged for a closer look

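Within groups of 4 libraries, the highest or lowest log2 CPM of a member was compared with the rest by Dixon's ratio. Of 24 groups with any count, 2 held a library that stood apart. For values without ties, chance gives about 1 in 20. Both concern Il19. In LowAhR, replicate 1 had 1.35 CPM, where the other 3 libraries were at 0. With 3 libraries tied, the ratio is at its highest whatever the remaining value, so this flag was fixed in advance. In LowAhR+AD, replicate 3 had 0 CPM, where the other 3 had 3.89 to 6.07 CPM.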

How the results depend on the processing

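In LowAhR+AD+BJ compared to Cont, the count of members called was 3, among 2949 genes called. With DESeq2 it was 5, among 3691 genes. When a library was left out it was 3 to 5, among 1988 to 3035 genes (5 among 3035 without LowAhR+AD+BJ replicate 3). With at least 10 counts required in every library it was 2, among 2888 genes, and Il24 was not tested. With limma voom it was 3, among 2690 genes, with Il20ra in place of Il24. Il24 and Il20, at 0 without DNCB, could be counted only through the DNCB libraries. In LowAhR+AD+BJ compared to LowAhR, 3 members (Il24, which entered the choice of the members, among them) and 1005 genes were called. DESeq2 called 1729 genes. Leaving out a library gave 1 to 4 members, Il24 always among them, and 414 to 1469 genes. Of these 8 fits, Il20rb and Il22ra1 were each called in 2 and Il20ra in 1. Where only 1 member was called, it was Il24, so no call free of the choice was left. In LowAhR compared to Cont, the genes called went from 0 to 509 with DESeq2, 35 with at least 10 counts required in every library and 250 with the 8 libraries compared alone, and from 0 to 159 when a library was left out (159 without LowAhR replicate 2). In LowAhR+AD+BJ compared to LowAhR+AD they went from 0 to 23 with DESeq2 and from 0 to 1 when a library was left out. Leaving LowAhR+AD replicate 1 out of the shared model, an alternative chosen after seeing the data, gave 475 genes in LowAhR compared to Cont. It gave 5 members among 3817 genes in LowAhR+AD+BJ compared to Cont, and 1716 genes in LowAhR+AD+BJ compared to LowAhR. No member was called in LowAhR compared to Cont or in LowAhR+AD+BJ compared to LowAhR+AD under any alternative run.

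Differences that had not passed the test changed direction when single libraries were left out. For LowAhR against Cont, the log2 fold changes ranged from -5.45 to 0.22 for Il19, -0.56 to 0.13 for Il20ra and -0.043 to 0.18 for Il10rb, and the log2 ratios from -0.30 to 0.58 for Il20rb to Il20ra and -0.75 to 0.12 for Il22ra1 to Il20ra. For LowAhR+AD+BJ against Cont, Il10rb ranged from -0.18 to 0.024. For LowAhR+AD+BJ against LowAhR+AD, the ranges were -1.04 to 0.34 for Il24, -0.10 to 0.56 for Il20rb, -0.070 to 0.43 for Il22ra1 and -0.051 to 0.21 for the log2 ratio of Il20rb to Il22ra1. The cause was not tested.

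Replicate numbers were not taken to pair the libraries: the deviations of same-numbered libraries from their group means correlated by over 0.1 for no more than 2 of the 4 pairs of any 2 groups, and 5 of 16 libraries were most like their own number. With a replicate block, 0, 2805, 947 and 0 genes were called in the 4 comparisons tested, and the call of Il22ra1 against LowAhR was lost (adjusted p = 0.074).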
